A study of Mus musculus with 18 samples.

Results

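Integrins are the cell surface receptors, made of an alpha and a beta chain, with which cells grip the extracellular matrix, and laminins are the cross-shaped trimers of an alpha, a beta and a gamma chain on which basement membranes are built. In the developing brain, laminin-rich basement membranes lie under the pia and around blood vessels, and radial glia anchor their endfeet to them with integrins that share the Itgb1 chain. The 30 mouse genes described here are 12 numbered integrin alpha genes, 8 integrin beta genes and 10 laminin chain genes, chosen by name and not by value (Itga, Itgb, Lama, Lamb or Lamc followed by a number). All 30 were listed in each of the 4 expression tables, out of 23138 named entries for hippocampi, 23398 for neurospheres and 54429 each for cortices and for the Rnf2 hippocampi.

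The series measured polyadenylated RNA in 4 comparisons of control (Ctrl) and conditional knockout (cKO) mice. Tissue was taken at postnatal day 0, and neurospheres were cultured from cells of that age. Kdm2b Emx1-∆CxxC mice have lost, wherever Emx1-Cre is active, the exon of Kdm2b that encodes the CxxC zinc finger, the part of the protein that binds unmethylated CG dinucleotides. They were compared with Kdm2b fl/+ or Kdm2b fl/fl controls in hippocampi (3 Ctrl and 3 cKO), in neurospheres grown from hippocampal neural progenitors with FGF2 and EGF (2 and 2) and in cortices (2 and 2). The methods state that neurospheres were kept in culture for 3 generations before sequencing. Hippocampi of Rnf2 Emx1-cKO mice, in which the gene of RING1B is deleted, a catalytic subunit of Polycomb repressive complex 1, were compared with Rnf2 fl/+ or Rnf2 fl/fl controls (2 and 2). The labels do not tell which control had 1 and which had 2 floxed alleles, so controls and cKO share floxed alleles. Emx1-Cre acts in progenitors of the dorsal telencephalon and their descendants, so vessels, meninges and microglia, which make much of the brain's laminin and some of its integrins, keep their Kdm2b and Rnf2 genes. Nothing says whether same-group libraries came from separate animals or cultures, so p values measure the spread between these libraries.

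The targeted genes were read first. Kdm2b FPKM (fragments per kilobase of gene, scaled to the reads mapped) was 29.4 ± 2.15 (SD, n = 3) in Ctrl and 27.2 ± 0.992 in cKO hippocampi, and Rnf2 FPKM was 31.5 ± 1.02 (SD, n = 2) in Ctrl and 28.1 ± 0.494 in cKO hippocampi of the Rnf2 table. Neither fall passed the test (limma, adjusted p = 0.364 and 0.762), and a value over the whole gene does not check the loss of an exon. Reads could be recovered for cortices (18480515 to 21905224 reads a library) and for the Rnf2 table (14654894 to 16334420 reads), whereas the FPKM of hippocampi and neurospheres gave no read counts, so the depth behind those values was not measured here. Neurosphere Ctrl replicate 1 stood apart, with 29.3% of its FPKM in entries that name no gene and 22.7% of its named FPKM in Mir6236, so the calls in neurospheres are also given without it. In bulk tissue, fewer cells of a type and less RNA per cell cannot be told apart.

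The DNA before the start of these genes is shown for those the results turn on: Itga3 and Lama5 (higher in Kdm2b cKO hippocampi), Itga4 (higher in cKO neurospheres), Lamb2 and Itgb5 (lower there) and Itgb1 (called in no comparison). The windows end at the annotated start, read 5′ to 3′ on the gene's strand, and carry CG dinucleotides, the letters that a CxxC zinc finger binds, in capitals. They are RefSeq sequences of build GRCm38.p6, at chr11:95076802-95076964 (minus strand) for Itga3, chr2:180225860-180226109 (minus) for Lama5, chr2:79255176-79255425 (plus) for Itga4, chr9:108479612-108479735 (plus) for Lamb2, chr16:33829415-33829664 (plus) for Itgb5 and chr8:128685404-128685653 (plus) for Itgb1. The Itga3 and Lamb2 windows are cut short to 163 and 124 bases because the deposited gene starts lie inside them.
Itga3: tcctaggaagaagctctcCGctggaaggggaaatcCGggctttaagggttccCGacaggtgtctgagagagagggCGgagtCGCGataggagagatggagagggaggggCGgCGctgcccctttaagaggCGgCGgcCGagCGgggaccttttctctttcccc
Lama5: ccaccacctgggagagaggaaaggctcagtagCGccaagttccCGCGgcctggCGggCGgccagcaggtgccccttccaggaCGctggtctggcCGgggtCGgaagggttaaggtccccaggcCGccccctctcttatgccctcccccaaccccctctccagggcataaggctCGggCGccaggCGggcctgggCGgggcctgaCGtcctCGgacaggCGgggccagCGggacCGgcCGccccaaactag
Itga4: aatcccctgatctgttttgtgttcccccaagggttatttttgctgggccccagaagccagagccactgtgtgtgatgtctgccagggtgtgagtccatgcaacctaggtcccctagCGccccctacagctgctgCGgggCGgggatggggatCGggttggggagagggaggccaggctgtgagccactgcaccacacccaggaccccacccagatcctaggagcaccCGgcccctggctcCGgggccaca
Lamb2: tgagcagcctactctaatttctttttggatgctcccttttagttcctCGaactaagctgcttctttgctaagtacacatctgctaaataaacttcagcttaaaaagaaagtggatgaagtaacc
Itgb5: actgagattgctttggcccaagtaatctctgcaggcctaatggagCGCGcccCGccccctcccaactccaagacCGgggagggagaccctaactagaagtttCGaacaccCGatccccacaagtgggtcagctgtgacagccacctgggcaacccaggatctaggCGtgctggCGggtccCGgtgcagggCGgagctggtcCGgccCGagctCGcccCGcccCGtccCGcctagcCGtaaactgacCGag
Itgb1: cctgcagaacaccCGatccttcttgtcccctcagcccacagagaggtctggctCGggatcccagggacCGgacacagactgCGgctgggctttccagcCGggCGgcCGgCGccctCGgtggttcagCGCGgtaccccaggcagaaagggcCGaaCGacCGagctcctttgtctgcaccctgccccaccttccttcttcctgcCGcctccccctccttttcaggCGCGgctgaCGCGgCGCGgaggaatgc

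Over the full 250 bases before the start, a window within 1000 bases of the deposited gene start was at hand for 17 of the 30 members. Their median was 12 CG dinucleotides, beside a median of 6 over 32841 windows of all genes, and 12 of the 17 held more than that. The limit of 1000 bases and the choice of the nearest window per gene were applied to members alone. The windows of all genes were not chosen in that way, so these medians come from unlike selections and do not test for enrichment. Itga3 had 22, the most among the 17, Itgb1 had 21, Lama5 had 19, Itgb5 and Itga8 had 18, Itga4 had 6 and Lamb2 had 3. Of the genes called higher in a Kdm2b cKO, those with a window had a rich one (Itga3, Lama5 and Itga8) or one at the median of all windows (Itga4). No window was at hand for the others, Itga9, Lama1, Lama4 and Lamc3. Genes lower in cKO neurospheres had a rich one (Itgb5) or a poor one (Lamb2). Itgb1, with a rich window, was called in no comparison. The letters CTTTGA are the core that TCF/LEF factors of the Wnt pathway recognise. They were found on either strand in 2 of the 17 windows (Itga1 and Itga10). The share of all windows with these letters, again chosen in another way, was 13.8%. A match of letters is a description and does not show binding.

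Itgb1, the beta chain that most of these alpha chains pair with, had the highest level of the integrin and laminin genes with an entry of their own in control libraries of every table. Its mean FPKM was 36.0 ± 0.514 (SD, n = 3) in control hippocampi, 146 ± 4.26 (SD, n = 2) in neurospheres, 39.8 ± 0.342 (SD, n = 2) in cortices and 52.3 ± 1.02 (SD, n = 2) in the Rnf2 controls. In control hippocampi it was followed by Lamb1 (18.7 ± 1.08), by Itga6 (13.1 ± 0.633), the alpha chain of a laminin receptor, and by Lamc1 (12.1 ± 0.694), the gamma chain of most laminins. The libraries of Itga6 and Lamc1 overlapped, as did those of the next 3, Itgb5 (7.68 ± 0.486), Lamb2 (7.33 ± 0.155) and Itgb8 (7.03 ± 0.338). Levels set across tables come from separate normalizations.

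Neurospheres had a shorter list. Itgb8, which pairs with the alpha-v chain and releases latent TGF-beta, came after Itgb1 at 66.6 ± 4.82 (SD, n = 2) FPKM in control neurospheres, and Itga6 had 22.4 ± 0.0939. Itgb5, a vitronectin receptor chain, had 16.2 ± 1.54 and Lamc1 had 15.3 ± 0.633, and their libraries overlapped. Lama5, an alpha chain of epithelial and vessel basement membranes, had 7.67 ± 1.43, which was 79.3% of the summed FPKM of the 5 laminin alpha genes. Lamc3 was listed at 0 in both control neurosphere libraries.

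Members with a mean under 0.5 FPKM were not tested, which left 24 in hippocampi (Itga10 among them through a joined entry), 17 in neurospheres, 18 in cortices and 19 in the Rnf2 table. Itga2, Itga11, Itgb6, Itgb7, Lama3 and Lamb3 were under it in every table. These include the leukocyte chain Itgb7, the epithelial chain Itgb6 and Lama3 and Lamb3, chains of the skin laminin. Itga2b and Itgb3, the chains of the platelet fibrinogen receptor, and Itgb4, the partner of Itga6 in hemidesmosomes, were tested in hippocampi of the Kdm2b table alone. Itgb2, the chain of leukocyte integrins, was tested in both hippocampal tables. Some deposited entries join neighbouring genes: in hippocampi Itga10 shares one with other genes, Rbm8a among them, and Itga1 shares one with Pelo in hippocampi and neurospheres. In cortices, where they are listed apart, mean FPKM was 32.0 for Rbm8a and 0.622 for Itga10, and 2.08 for Pelo beside 0.657 for Itga1. In the Rnf2 hippocampi, also listed apart, it was 18.3 for Rbm8a and 0.299 for Itga10, and 1.25 for Pelo beside 1.23 for Itga1. The values of 44.8 (Itga10) and 11.5 (Itga1) in control hippocampi of the Kdm2b table are therefore not levels of these integrins alone. The entry there that names Itga10 alone averaged 0.487 FPKM, under the minimum.

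**Figure D1:**
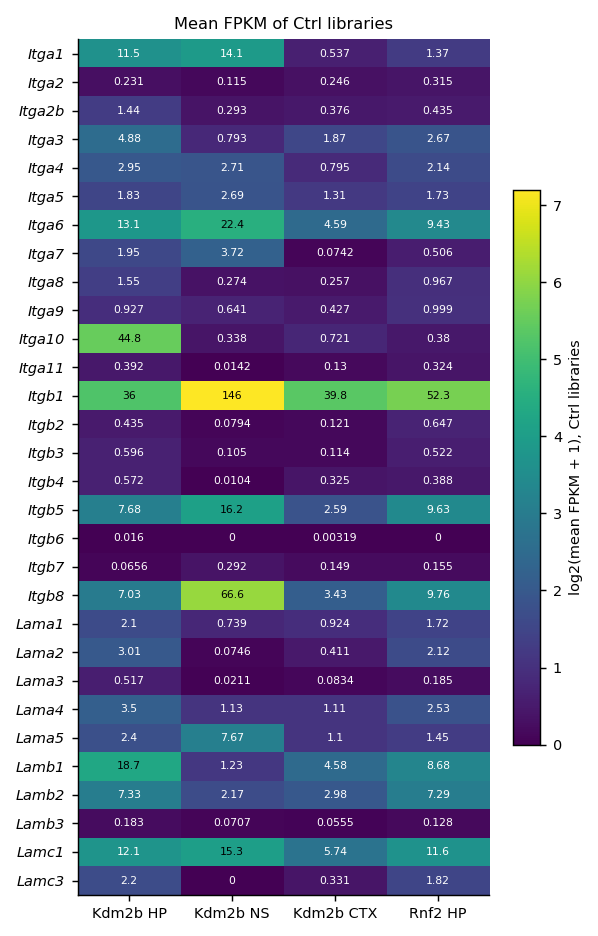
Mean FPKM of the control libraries for the 30 integrin and laminin genes (rows) in the 4 tables (columns: Kdm2b hippocampus, neurospheres, cortex and Rnf2 hippocampus), with colour on log2(FPKM + 1). Itgb1 stands out in every column, at 36.0, 146, 39.8 and 52.3 FPKM, and the high hippocampal cells of Itga10 and Itga1 (in neurospheres also Itga1) hold joined entries.

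In Kdm2b cKO hippocampi, 3 of the 24 tested members were called higher and 0 were called lower. A gene was called at a log2 fold change over 0.4 in size and an unadjusted p under 0.05, and over all genes tested 3.89% were called higher and 2.25% lower. Fold changes are differences of log2(FPKM + 1), which understates changes of low genes. The 3 were Itga3, Itga9 and Lama5, each also past an adjusted p of 0.05, which 4.41% of all genes passed with that fold change. The median log2 fold change of the 24 was −0.02, beside 0.01 over all genes, and without the joined entries of Itga10 and Itga1 the calls were 3 of 22.

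Itga3 encodes the alpha chain of a laminin receptor that neurons and epithelia use, and lies at chr11:95044474-95076801 (mm10 coordinates throughout). Its FPKM was 5.00, 4.77 and 4.86 in the Ctrl hippocampi and 8.53, 8.32 and 7.75 in the cKO hippocampi. Every cKO library was above every Ctrl library, and the log2 fold change was 0.65 ± 0.077 (SE, limma, adjusted p = 0.00282).

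Lama5, at chr2:180176373-180225859, is a laminin alpha chain and so a ligand of the Itga3 receptor. Its entry, which it shares with the microRNA gene Mir7005, had 2.35, 2.68 and 2.17 FPKM in Ctrl and 4.85, 4.49 and 4.27 FPKM in cKO hippocampi. The groups did not overlap, and the log2 fold change was 0.71 ± 0.0995 (SE, limma, adjusted p = 0.00524). Lama5 made up 20.8% of the summed laminin alpha FPKM in Ctrl libraries (19.8 to 22.3%) and 35.4% in cKO libraries (33.9 to 37.6%).

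Itga9, at chr9:118606690-118901003, encodes a chain that binds tenascin C, osteopontin and VCAM1. It had 0.997, 0.806 and 0.979 FPKM in Ctrl and 1.56, 1.86 and 1.49 FPKM in cKO hippocampi. The cKO libraries were again all higher, with a log2 fold change of 0.45 ± 0.112 (SE, limma, adjusted p = 0.0413). Without cKO replicate 2 the log2 fold change was 0.39, under the threshold of 0.4. Its adjusted p was over 0.05 with any 1 library left out (limma, 0.0538 to 0.150) and with replicate number as a block (limma, 0.107).

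The other 21 tested members ranged from a log2 fold change of −0.28 to 0.32. At the lower end, Lama2, a laminin alpha chain of muscle and vessel basement membranes, had 2.83, 3.29 and 2.92 FPKM in Ctrl and 2.44, 2.21 and 2.28 FPKM in cKO hippocampi. All 3 cKO values were below the Ctrl values, at an unadjusted p of 0.0197 and an adjusted p of 0.125 (limma). At the upper end, Itgb4 had 0.557, 0.553 and 0.605 FPKM in Ctrl and 0.975, 1.28 and 0.673 FPKM in cKO hippocampi (limma, adjusted p = 0.201). Itga5, the chain of the main fibronectin receptor, had 1.76, 1.89 and 1.84 FPKM in Ctrl and 1.98, 2.78 and 2.31 FPKM in cKO hippocampi (limma, adjusted p = 0.262). For Itgb1 the 95% interval of the log2 fold change ran from −0.05 to 0.15. Among partner genes, 1 of 11 tested basement membrane genes was called higher, and 0 of 21 tested adhesion adaptors (the talins, kindlins and other proteins that couple integrins to actin) were called.

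Some markers of other cell types moved with these members. The summed FPKM of 6 choroid plexus markers was 6.20, 5.46 and 16.5 in Ctrl hippocampi and 59.8, 40.3 and 6.84 in cKO hippocampi, so it was high in cKO replicates 1 and 2 alone. In cKO replicate 3 Itga3 (7.75), Lama5 (4.27) and Itga9 (1.49) were still above every Ctrl library. With cKO replicates 1 and 2 both left out, a choice made after seeing the data, the log2 fold change was 0.57 for Itga3, 0.63 for Lama5 and 0.37 for Itga9. The value of Itga9 is under the threshold of 0.4. The p values of this fit, with 1 cKO library, are left out. Of 7 microglial markers 3 were called higher, with sums of 33.1 to 39.5 in Ctrl and 41.7 to 54.3 in cKO. Of 8 progenitor markers 3 were called higher (Pax6, Vim and Nes), with sums of 1163 to 1250 and 1201 to 1325. Of 5 astrocyte markers 2 were called lower, with overlapping sums (112 to 133 in Ctrl and 110 to 178 in cKO). Of 6 neuron markers 0 were called, and their sums were 1606 to 1703 in Ctrl and 1244 to 1563 in cKO. Of 6 oligodendrocyte lineage markers 0 were called, with sums of at least 66.7 in Ctrl and at most 61.6 in cKO. The sums of both these lists were lower in every cKO library. The part of any of these cells in the rises was not tested. Of 9 endothelial and 9 meningeal markers 0 were called, and none of these markers was at 0.

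**Figure D2:**
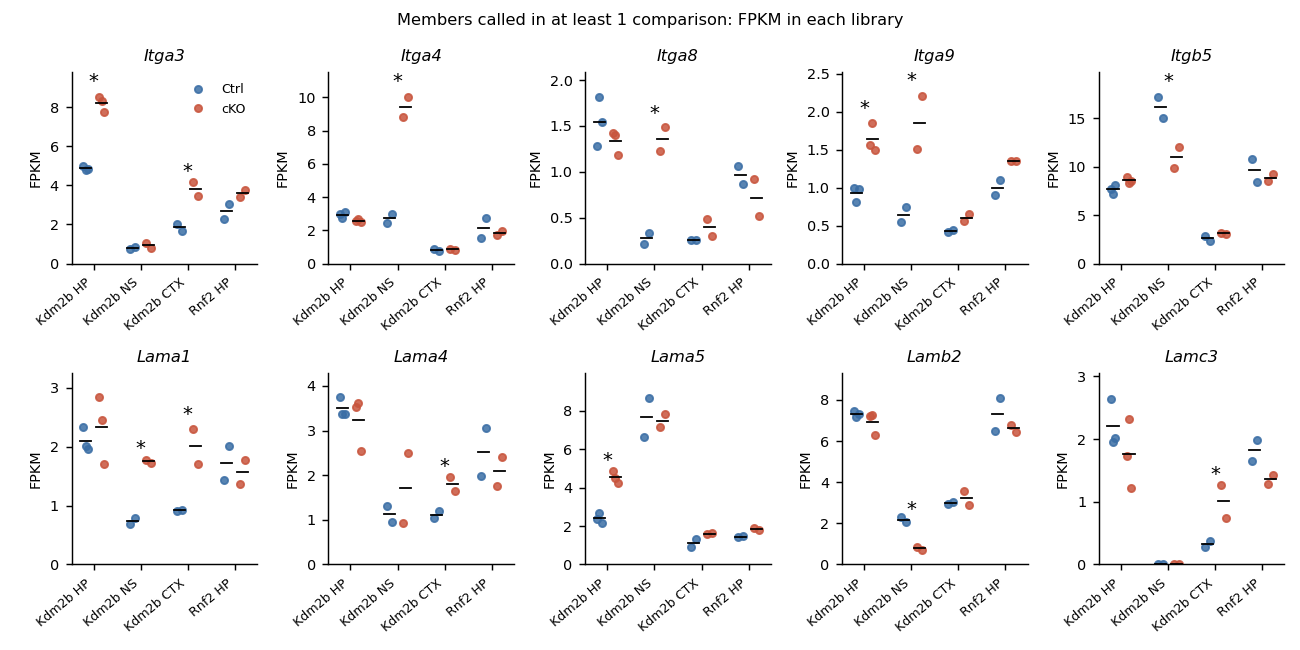
FPKM in each library (points) and group means (bars) for the 10 members called in at least 1 comparison, with Ctrl in blue and cKO in red; HP is hippocampus, NS neurospheres and CTX cortex, and an asterisk marks a call at a log2 fold change over 0.4 and an unadjusted p under 0.05. Itga3 is marked in Kdm2b hippocampi and cortices and Itga9 in hippocampi and neurospheres, whereas Itga4, Itga8, Itgb5 and Lamb2 are marked in neurospheres alone.

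In Kdm2b cKO neurospheres, 4 of the 17 tested members were called higher (Itga4, Itga8, Itga9 and Lama1) and 2 lower (Itgb5 and Lamb2), all with adjusted p values under 0.05. Many genes moved in this comparison: 11.4% of all genes tested were called higher and 13.2% lower, and 19.3% were called with an adjusted p under 0.05. With each library rescaled to the same FPKM total, 4 members were called higher and 1 lower. The median log2 fold change was 0.13 over the 17 members and −0.01 over all genes.

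Itga4, at chr2:79255426-79333123, encodes the alpha chain of a receptor for VCAM1 and fibronectin. It had 2.42 and 3.01 FPKM in Ctrl and 8.81 and 10.03 FPKM in cKO neurospheres. Both cKO libraries were far above both Ctrl libraries, and the log2 fold change of 1.49 ± 0.133 (SE, limma, adjusted p = 0.00214) was the largest of any member in any comparison on the log2(FPKM + 1) scale. With a pseudocount of 0.1 it was 1.76, and that of Itga8 was 1.97.

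Itga8, at chr2:12106632-12301922, encodes a receptor chain for nephronectin and fibronectin. It had 0.215 and 0.334 FPKM in Ctrl and 1.22 and 1.48 FPKM in cKO neurospheres, a log2 fold change of 0.88 ± 0.183 (SE, limma, adjusted p = 0.0233). Itga9 had 0.544 and 0.739 FPKM in Ctrl and 1.51 and 2.2 FPKM in cKO neurospheres (log2 fold change 0.79 ± 0.194, SE; limma, adjusted p = 0.0373). Neither gene's groups overlapped. Lama1, at chr17:67697259-67822647, the laminin alpha chain of early embryonic and pial basement membranes, had 0.682 and 0.796 FPKM in Ctrl and 1.78 and 1.73 FPKM in cKO neurospheres. The groups were apart here too, with a log2 fold change of 0.66 ± 0.158 (SE, limma, adjusted p = 0.0346).

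Lamb2, at chr9:108479736-108490530, is the laminin beta chain of mature basement membranes and synapses. It had 2.29 and 2.05 FPKM in Ctrl and 0.873 and 0.712 FPKM in cKO neurospheres. Both cKO libraries were lower, and the log2 fold change was −0.82 ± 0.158 (SE, limma, adjusted p = 0.0183). Its share of the summed laminin beta FPKM was 62.4% in Ctrl and 31.9% in cKO libraries, and that of Lamb1, whose own log2 fold change of 0.16 did not pass the test, was 35.5% and 60.3%.

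Itgb5, at chr16:33829665-33949338, had 17.3 and 15.1 FPKM in Ctrl and 9.92 and 12.1 FPKM in cKO neurospheres. The groups did not overlap, and the log2 fold change was −0.52 ± 0.125 (SE, limma, adjusted p = 0.0350). Without Ctrl replicate 1, the library that stood apart, it was −0.43 at an unadjusted p of 0.0538 (limma). With each library rescaled to the same FPKM total it was −0.41 at an unadjusted p of 0.175 (limma). That scaling moves the median of all genes by 0.11.

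Without Ctrl replicate 1, the control arm is 1 library that is assumed to vary like the cKO libraries. The other 5 members were still called, and Itga4 kept an adjusted p under 0.05 (log2 fold change 1.37; limma, adjusted p = 0.0339). The 4 others did not: the values were 0.82 for Itga8 (limma, adjusted p = 0.146), 0.71 for Itga9 (0.203), 0.62 for Lama1 (0.193) and −0.77 for Lamb2 (0.151). Of all genes, 9.89% were then called higher and 11.1% lower, and 4.24% with an adjusted p under 0.05. In the remaining control library Lama5 held 82.5% of the laminin alpha FPKM and Lamb1 held 38.1% of the laminin beta FPKM.

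The other 11 tested members included Itgb1, with a 95% interval from −0.09 to 0.35, and Itgb8, with 70.0 and 63.2 FPKM in Ctrl and 66.8 and 51.8 FPKM in cKO neurospheres. Lama5 had 6.66 and 8.69 FPKM in Ctrl and 7.16 and 7.82 FPKM in cKO neurospheres, so its groups overlapped, and its log2 fold change of −0.02 became 0.08 when libraries were rescaled to the same total. Itga7, a laminin receptor chain, had 3.07 and 4.38 FPKM in Ctrl and 2.67 and 6.14 FPKM in cKO neurospheres, so the cKO libraries lay on either side of the Ctrl libraries.

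Partner genes moved in both directions. Of 9 tested basement membrane genes 3 were called higher, the collagen genes Col18a1 (log2 fold change 1.26), Col4a1 (0.86) and Col4a2 (0.61), and 4 were called lower. Of 20 tested adhesion adaptors 2 were called higher and 7 lower, led by Lims2, an adaptor of the integrin-linked kinase, at 33.6 ± 0.522 (SD, n = 2) FPKM in Ctrl and 3.89 ± 0.0163 in cKO (log2 fold change −2.82). Of 9 tested other ligands 1 was called higher and 4 lower. Among these, Vcam1, a ligand of the Itga4 and Itga9 receptors, had 15.4 ± 1.71 FPKM in Ctrl and 4.64 ± 1.01 in cKO (log2 fold change −1.55; limma, adjusted p = 0.00265). Without Ctrl replicate 1 the counts were 3 higher and 1 lower for basement membrane genes, 1 and 7 for adaptors and 0 and 2 for other ligands, and the log2 fold change was −2.84 for Lims2 and −1.44 for Vcam1.

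Markers of glia moved in these cultures as well. All 5 astrocyte markers were called lower, with sums of 168 to 198 FPKM in Ctrl and 21.6 to 22.8 in cKO, as were 4 of 6 markers of the oligodendrocyte lineage (Pdgfra, Sox10 and Mbp among them). The summed FPKM of those 6 overlapped, at 2371 to 2431 in Ctrl and 2417 to 2480 in cKO. Of 8 progenitor markers 2 were called higher (Vim and Nes) and 1 lower (Hes5), with sums of 4172 to 4614 in Ctrl and 5556 to 7386 in cKO. Of 4 tested neuron markers 1 was called higher and 2 lower. Without Ctrl replicate 1 these counts differed for neuron markers alone, with 1 called lower. Their part in the changes of the integrin and laminin genes was not tested. The sums of 9 endothelial markers were 5.47 to 5.86 in Ctrl and 4.94 to 5.46 in cKO, those of 7 microglial markers were at most 0.157 and 0.594, and 1 endothelial and 2 microglial markers were at 0 in every library.

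In Kdm2b cKO cortices, 4 of the 18 tested members were called higher (Itga3, Lama1, Lama4 and Lamc3) and 0 lower, beside 4.73% of all genes called higher and 2.28% lower. With an adjusted p under 0.05 the count of members was 0, beside 0.427% of all genes called. That count depends on the FPKM fit. By limma-voom on recovered reads the adjusted p was 0.00757 for Itga3, 0.00934 for Lama1, 0.0283 for Lama4 and 0.0346 for Lamc3. The share of all genes passing by limma-voom is not given here. In the FPKM fit, log2 fold changes were above 0 for 15 of the 18, with a median of 0.23 beside −0.01 over all genes. All 8 tested laminin genes were among the 15.

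Itga3 had 2.05 and 1.69 FPKM in Ctrl and 4.16 and 3.47 FPKM in cKO cortices, which rest on 258 and 205 recovered reads in Ctrl and 467 and 371 in cKO. Both cKO libraries were higher, and the log2 fold change was 0.75 ± 0.124 (SE, limma, unadjusted p = 0.00175, adjusted p = 0.112). Lama1 had 0.914 and 0.933 FPKM in Ctrl and 2.31 and 1.71 FPKM in cKO cortices (0.64 ± 0.14, SE; limma, unadjusted p = 0.00604, adjusted p = 0.182). Its groups were apart too.

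Lama4, at chr10:38965515-39110188, a laminin alpha chain of vessels, had 1.04 and 1.19 FPKM in Ctrl and 1.96 and 1.65 FPKM in cKO cortices (0.41 ± 0.121, SE; limma, adjusted p = 0.280). Lamc3, at chr2:31887291-31946539, a gamma chain made in meninges and vessels, had 0.283 and 0.378 FPKM in Ctrl and 1.27 and 0.746 FPKM in cKO cortices (0.58 ± 0.18, SE; limma, adjusted p = 0.295). For both genes the groups did not overlap, and cKO replicate 1 was the higher of the cKO libraries. Lama4 was not called without Ctrl replicate 1 (0.36, unadjusted p = 0.0797 by limma) or without cKO replicate 1 (0.33, unadjusted p = 0.0974 by limma), and Lamc3 was not called without Ctrl replicate 1 or without Ctrl replicate 2 (0.53 and 0.63, unadjusted p = 0.0817 and 0.0521 by limma). Without cKO replicate 1, Lamc3 was under the FPKM minimum, and with libraries rescaled to the same total Lama4 was at 0.38, under the threshold of 0.4.

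The cortical cKO libraries also held far more RNA of meningeal genes. All 9 meningeal markers were called higher, and their summed FPKM was 1.92 and 3.18 in Ctrl and 49.2 and 32.4 in cKO cortices. Dcn, a proteoglycan of fibroblasts, had 0.373 ± 0.099 (SD, n = 2) FPKM in Ctrl and 5.88 ± 0.425 in cKO cortices (log2 fold change 2.33; limma, adjusted p = 0.0114), and Aldh1a2, the retinoic acid synthase of the meninges, had 0.0724 ± 0.074 and 4.44 ± 1.64 (2.31, adjusted p = 0.043). Of 9 endothelial markers 3 were called higher, with sums of 42.5 and 41.0 in Ctrl and 65.6 and 64.0 in cKO cortices. Of 6 tested mural cell markers 2, of 5 red cell markers 3 and of 6 tested microglial markers 2 were called higher. The basement membrane genes Col4a1, Col4a2, Nid1, Nid2 and Col18a1, 5 of 9 tested and named after their values were seen, were called higher, with sums over 12 such genes of 87.7 and 87.0 in Ctrl and 124 and 97.0 in cKO cortices. Both cKO libraries were above both Ctrl libraries in each of these sums, and no fit within cortices separates them from genotype, so the higher laminin values cannot be told apart from a larger share of meningeal and vessel tissue.

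**Figure D3:**
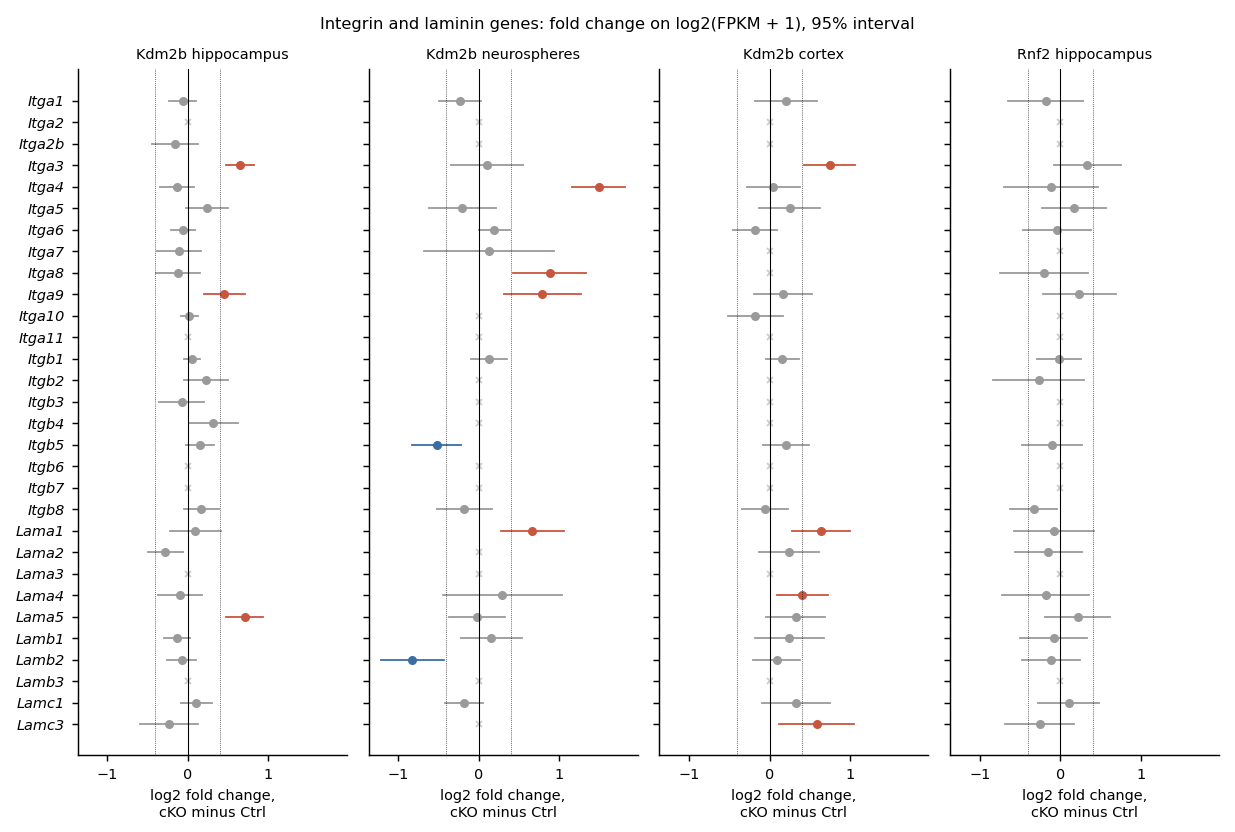
Log2 fold change (cKO minus Ctrl, on log2(FPKM + 1)) with its 95% interval for each tested member in the 4 comparisons; red marks members called higher, blue members called lower, grey the rest, a pale cross a member that was not tested, and dotted lines the threshold of 0.4. In cortices 15 of 18 points lie right of 0 and in the Rnf2 panel 14 of 19 lie left of it.

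In Rnf2 cKO hippocampi, 0 of the 19 tested members were called in either direction, beside 2.86% of all genes called higher and 1.85% lower, and 0 of all genes had an adjusted p under 0.05. At an unadjusted p under 0.05 and no fold change threshold 1 member passed by limma, Itgb8, and limma-voom on recovered reads called 0. Log2 fold changes were below 0 for 14 of the 19, with a median of −0.10 beside −0.000244 over all genes.

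Itgb8 had 9.41 and 10.1 FPKM in Ctrl and 7.35 and 7.76 FPKM in Rnf2 cKO hippocampi, a log2 fold change of −0.33 ± 0.116 (SE, limma, unadjusted p = 0.0322, adjusted p = 0.679). Itga3 had 2.27 and 3.06 FPKM in Ctrl and 3.40 and 3.79 FPKM in cKO hippocampi (0.33 ± 0.167, SE; limma, unadjusted p = 0.0972). Lama5 had 1.41 and 1.48 FPKM in Ctrl and 1.89 and 1.79 FPKM in cKO hippocampi, with a log2 fold change of 0.21 ± 0.16 (SE, limma, unadjusted p = 0.235). The cKO libraries lay outside the Ctrl libraries for these 3 genes, below for Itgb8 and above for Itga3 and Lama5. They did so too for Itga1, Itgb2, Lama2 and Lamc3 (below) and for Itga5 and Itga9 (above). The share of all genes with groups apart is not given here, so these genes are not set apart by it. Of 9 meningeal markers 5 were called lower, with sums of 44.1 to 46.5 in Ctrl and 21.4 to 30.9 in cKO, and their part in the laminin values was not tested. Choroid plexus sums were 12.6 to 50.7 in Ctrl and 7.73 to 243 in cKO.

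**Figure D4:**
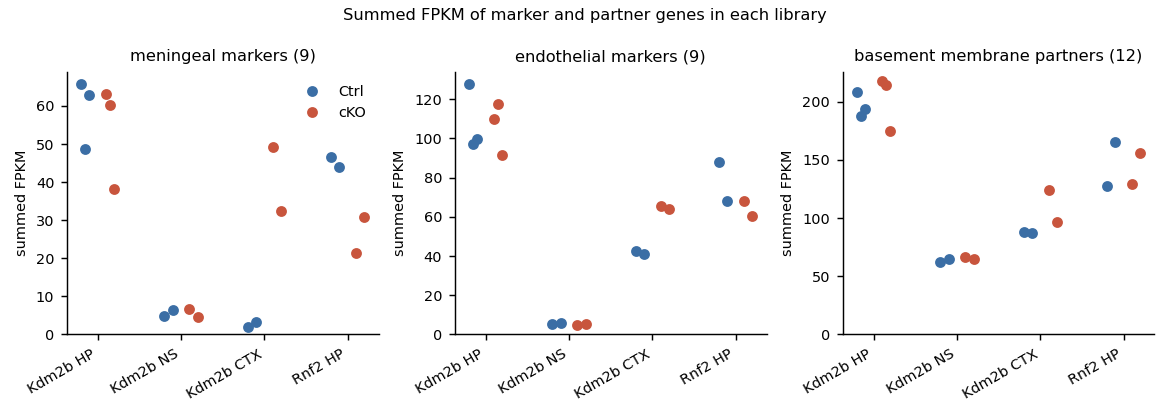
Summed FPKM of 9 meningeal markers, 9 endothelial markers and 12 basement membrane genes in each library (points; Ctrl blue, cKO red) of the 4 tables. Meningeal sums are 1.92 and 3.18 in Ctrl and 49.2 and 32.4 in cKO cortices, whereas in Kdm2b hippocampi the groups overlap and in the Rnf2 table the cKO libraries are lower.

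The cKO effects were then compared between tables as an interaction of genotype and table, with the same 6 Kdm2b hippocampal libraries in all 3 tests. Between hippocampi and neurospheres 6 of 17 members differed at an adjusted p under 0.05, beside 27% of all genes, and 10 did at an unadjusted p under 0.05 (limma), which 39.4% of all genes passed. Itga3 and Lama5, called higher in hippocampi and not in neurospheres, differed by 0.54 (hippocampi minus neurospheres, 95% interval 0.22 to 0.86; limma, adjusted p = 0.0181) and 0.73 (0.36 to 1.09; adjusted p = 0.00861). Itgb5 and Lamb2, called lower in neurospheres and not in hippocampi, differed by 0.67 (limma, adjusted p = 0.00492) and 0.75 (adjusted p = 0.00297), on log2 fold changes of 0.15 and −0.07 in hippocampi. Itga4 and Itga8, called higher in neurospheres and not in hippocampi, differed by −1.63 (limma, adjusted p = 4.27e-05) and −1.0 (adjusted p = 0.0033). With a pseudocount of 0.1 or a minimum of 1 FPKM, Itga3 no longer differed at an adjusted p under 0.05. Itga9, called higher in both, had a difference of −0.34 with a 95% interval from −0.78 to 0.10.

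Between hippocampi and cortices 0 of 18 members differed at an adjusted p under 0.05, beside 1.74% of all genes, and 7 did at an unadjusted p under 0.05 (limma), which 14.4% of all genes passed. Itga3 differed by −0.10 with a 95% interval from −0.39 to 0.19, on effects of 0.65 and 0.75. Lama2 differed by −0.52 (limma, unadjusted p = 0.00464, adjusted p = 0.131) and Lamc3 by −0.81 (limma, unadjusted p = 0.00706, adjusted p = 0.155), each with the higher log2 fold change in cortices. Between the Kdm2b and Rnf2 hippocampi 0 of 19 members differed, beside 0.807% of all genes, and 3 did at an unadjusted p under 0.05 (limma), which 15.6% of all genes passed. These 3 were Itgb8 (0.50, adjusted p = 0.136), Lama5 (0.49, adjusted p = 0.159) and Itgb2 (0.50, adjusted p = 0.249), and Itga3 differed by 0.31 with a 95% interval from −0.03 to 0.65.

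The share of each laminin chain gene was also set out by table. Of the summed FPKM of Lamc1 and Lamc3, Lamc1 held 84.7% in control hippocampi and 94.6% in control cortices. Lamc3 held 15.3% in control hippocampi, and in cortices it held 5.43% in Ctrl and 11.7% in cKO libraries. Among alpha chains, Lama4 had the largest share in control hippocampi (30.4%), followed by Lama2 (26.1%), Lama5 (20.8%) and Lama1 (18.2%). In the Rnf2 table Lama5 held 18.4% in Ctrl (16.2 to 20.7%) and 25.0% in cKO libraries (22.8 to 27.1%). These shares were not tested.

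**Figure D5:**
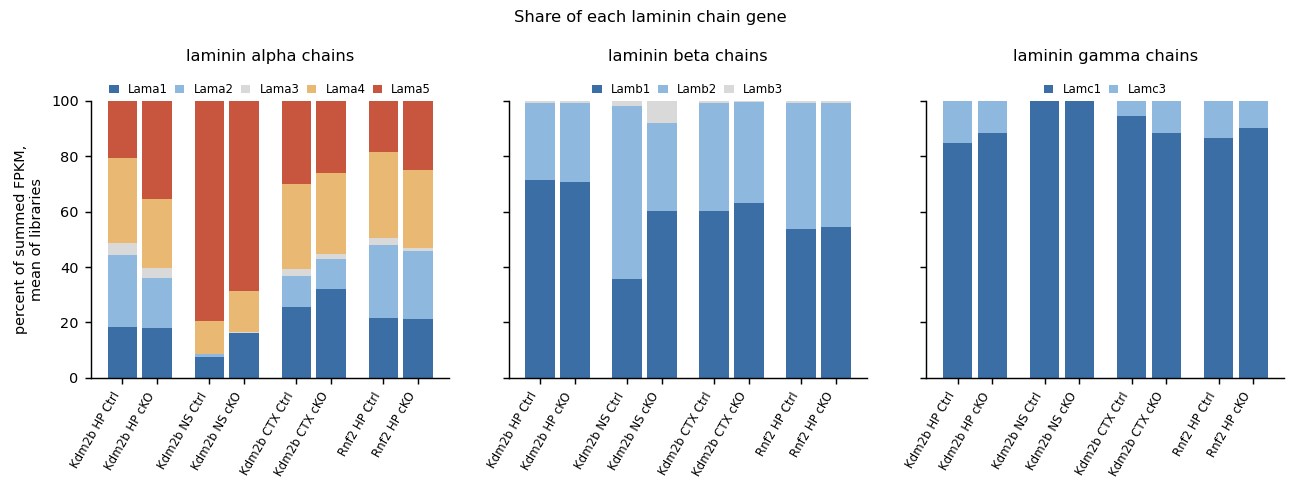
Share of each gene in the summed FPKM of the laminin alpha, beta and gamma chains (gamma: Lamc1 and Lamc3; percent, mean of the libraries of a group) for Ctrl and cKO in the 4 tables. The Lama5 segment goes from 20.8% to 35.4% in Kdm2b hippocampi, and the Lamb2 segment from 62.4% to 31.9% in neurospheres.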

How the data were processed

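RNA-seq of polyadenylated RNA from 18 libraries was analysed. For hippocampi and neurospheres the authors used cutadapt for trimming, STAR for alignment (build mm10) and Cufflinks 2.2.1 for FPKM, as methods and labels state. The cortical and Rnf2 tables hold FPKM as deposited by the authors, with Ensembl identifiers and gene lengths, and how they were made is not given in the sources used here. In them, FPKM times length gave whole reads for 100% of values under 50 (tolerance 0.02). Groups were taken from the labels. No per-sample column was left out.

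The row with the highest mean was kept for each name, and entries without a name were dropped. For each comparison, log2(FPKM + 1) was fitted in limma 3.58.1 (R 4.3.3, lmFit and trended eBayes) over genes averaging 0.5 FPKM or more, with Benjamini-Hochberg adjustment over all genes. Thresholds were those of the study. One further gene that fits the name rule, under the FPKM minimum in every table, is not reported here. Every other member is named. Those called are given per library, and list genes were named at an adjusted p under 0.05, at most 4 a list. The 5 basement membrane genes named in cortices depart from that rule and were named after their values were seen. Members, gene lists and tests were chosen with earlier results of these data known. On simulated data 199, 196, 190 and 191 of 200 genes changed by 1 log2 unit were recovered in Kdm2b hippocampi, neurospheres, cortices and Rnf2 hippocampi. Of unchanged genes 0.649%, 1.63%, 1.5% and 2.93% were called. The changed genes had a mean log2(FPKM + 1) over 1. Smaller changes, as most of those called here are, and lower genes were not simulated as changed, so their recovery is not known.

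Alternatives covered the pseudocount, filters, scaling, variance trend, thresholds, summed rows, limma-voom on recovered reads, a replicate block and leaving out each library. Promoter sequences were taken from RefSeq (GRCm38.p6). Figures were drawn with matplotlib 3.10.9.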

Additional observations from a re-analysis of the deposited data

Results flagged for a closer look

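For 6 members the cKO effect in Kdm2b hippocampi differed from that in neurospheres by the interaction test, out of 17 tested and beside 27% of all genes. The differences of log2 fold changes (hippocampi minus neurospheres) were 0.67 for Itgb5, 0.749 for Lamb2, 0.541 for Itga3, 0.728 for Lama5, −1.63 for Itga4 and −1.0 for Itga8. The same 6 differed without neurosphere Ctrl replicate 1, the library that stood apart. Neurospheres hold cultured progenitors and few or none of the vessel, meningeal and microglial transcripts of hippocampal tissue, and the part of cell makeup in these differences was not tested.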

How the results depend on the processing

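Of the 13 called fold changes none changed direction under any alternative. In hippocampi the members called higher were 2 to 4 over all alternatives. Itgb4 was added with a pseudocount of 0.1, with no fold change threshold and without cKO replicate 3. Itga9 was lost without cKO replicate 2, and also, at a log2 fold change of 0.37, with cKO replicates 1 and 2 both left out. There 1 member was called lower with no fold change threshold (Lama2) and 1 with cKO replicates 1 and 2 both left out (Lamc3; chosen after seeing the data, with the lone cKO library assumed to vary like the controls). In neurospheres 1 member was called lower, Lamb2, with libraries rescaled to the same total, and leaving out a library gave 1 to 2, with 4 to 6 called higher (Itga7 and Lama4 added without cKO replicate 1). Leaving out a library in tables with 2 a group leaves 1, assumed to vary like the other group. In cortices the members called higher were 0 with an adjusted p and 7 with limma-voom on recovered reads (Itga1, Lama2 and Lama5 added), and leaving out a library gave 2 to 6. In the Rnf2 table leaving out a library gave 0 to 1 called higher (Itga3, without Ctrl replicate 2), and with no fold change threshold 1 was called lower (Itgb8). With rescaled totals 3 members differed between hippocampi and neurospheres (Lamb2, Itga4 and Itga8), with a minimum of 1 FPKM 4 did (Itga3 and Itga8 lost), and with a pseudocount of 0.1 6 did (Lama1 in place of Itga3). Same-numbered libraries did not deviate together (correlations of deviations −0.103 to 0.0491 in hippocampi, −0.277 in neurospheres, −0.0528 in cortices and 0.161 in the Rnf2 table), so the numbers are not taken as pairs. With the replicate block 3 members were called higher and 0 lower in hippocampi, 4 and 2 in neurospheres, 4 and 0 in cortices and 0 and 0 in the Rnf2 table, as without it. These calls rest on unadjusted p. With the block the adjusted p rose over 0.05 for Itga9 in hippocampi (limma, 0.107) and for Itgb5 (0.0622) and Lama1 (0.0701) in neurospheres. A crossed block in neurospheres, chosen after seeing the data, gave 4 called higher and 2 lower. The FPKM of hippocampi and neurospheres gave no read counts, which limits what can be said of members under 0.5 FPKM.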
